A study of Mus musculus with 8 samples.

Results

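The genes described here encode the beta subunits of the sodium potassium ATPase (Atp1b1, Atp1b2 and Atp1b3) and 5 small proteins that bind and tune it (Fxyd1 to Fxyd5). They were chosen by name, as 8 of the 24421 genes counted. Of the 8 genes, all 3 beta genes and all 5 FXYD genes had enough counts to be tested. RNA bound to tagged ribosomes (RiboTRAP RNA) was sequenced from kidneys of mice in which HoxB7-Cre switches on Gt(ROSA)26Sor-mCherry-Rpl10a, a red fluorescent tag on a ribosomal protein. This Cre line is not limited to the collecting duct, since the epithelium of the ureter has the same embryonic origin and is tagged too. The 4 IRI mice had 30 min of ischemia by clamping and their kidneys were taken 9 h later. The 4 Sham mice carried the same alleles and had the same operation without clamping. The study used male mice of 10 to 16 weeks, and each library came from 1 mouse.

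The sodium potassium ATPase moves sodium out of the cell and potassium in, and in kidney tubules it sits in the basolateral membrane, where it drives sodium reabsorption. Its alpha subunit splits ATP and carries the ions, its beta subunit is needed to fold the enzyme and bring it to the membrane, and an FXYD protein can bind the pair and alter its affinity for the ions. Fxyd2 encodes the gamma subunit, known from the proximal tubule, the thick ascending limb and the distal convoluted tubule. Fxyd4 encodes the corticosteroid hormone induced factor CHIF, known from the collecting duct, where it raises the affinity of the pump for sodium.

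All FXYD proteins share a short motif that gives the family its name, phenylalanine, any residue, tyrosine and aspartate. The coding stretches around it are shown because they are what makes these 5 genes 1 family. Each is 30 bases of an annotated GENCODE M21 coding transcript, 5′ to 3′, with the 4 codons of the motif in capitals, and each runs across an exon junction, so the GRCm38 positions span an intron.
Fxyd1 (chr7:31053464-31053911, minus strand): ccggatccaTTCACCTACGATtaccacacc
Fxyd2 (chr9:45408126-45408310, plus strand): gagaatcccTTCGAGTACGACtatgaaacc
Fxyd3 (chr7:31071356-31072093, minus strand): aatgatcctTTCTACTATGATtggtacagc
Fxyd4 (chr6:117934490-117935027, minus strand): gacagtcccTTCTACTATGACtgggagagc
Fxyd5 (chr7:31035273-31035404, minus strand): aacaaccccTTCTACTACGATgatactacc
The stretches of Fxyd3 and Fxyd4 were the most alike, with 22 of 30 bases the same, and those of Fxyd1 and Fxyd4 the least, with 15. The motif began at codon 136 of 185 in Fxyd5 and at codons 17 to 30 in the other 4 genes. Fxyd5, Fxyd1 and Fxyd3 lie in this order within 43.98 kb of chromosome 7, and Fxyd2 and Fxyd4 lie apart, on chromosomes 9 and 6.

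Counts assigned to genes ran from 13518005 to 27496808 in the IRI libraries and from 25210299 to 29285812 in the Sham libraries. Of 14606 genes tested with edgeR's quasi-likelihood test, 49.7% changed at an adjusted p of 0.01, 25.1% higher and 24.6% lower after IRI, so a changed gene was no rarity. The 8 summed principal cell markers, which define the main cell of the collecting duct, reached 10460 to 13885 CPM in Sham. The proximal tubule does not come from the HoxB7 lineage, yet its 10 summed markers reached 7523 to 9876 CPM in those libraries, so the RNA was not from the collecting duct alone. The mice carry numbers in a low series (IRI replicates 1, 2 and 3 and Sham replicate 1) and a high series (IRI replicate 4 and Sham replicates 2, 3 and 4). No source used here says what the series stand for. In libraries of bulk RNA, fewer cells of a type and less RNA per cell cannot be told apart.

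Of the 8 genes, 1 was higher after IRI (Fxyd5), 3 were lower (Atp1b1, Atp1b3 and Fxyd4) and 4 were not called (Atp1b2, Fxyd1, Fxyd2 and Fxyd3). The share called, 4 of 8, was near the 49.7% of all tested genes, so this count is no result about these genes. The same 4 genes had groups that did not overlap, which held for 58.6% of tested genes (28.8% higher and 29.8% lower). The median log2 fold change was -0.33 over the 8 genes and -0.01 over all tested genes. The genes moved in different directions, and the sizes ran from a 4.89-fold rise to a 3.11-fold fall.

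**Figure D1:**
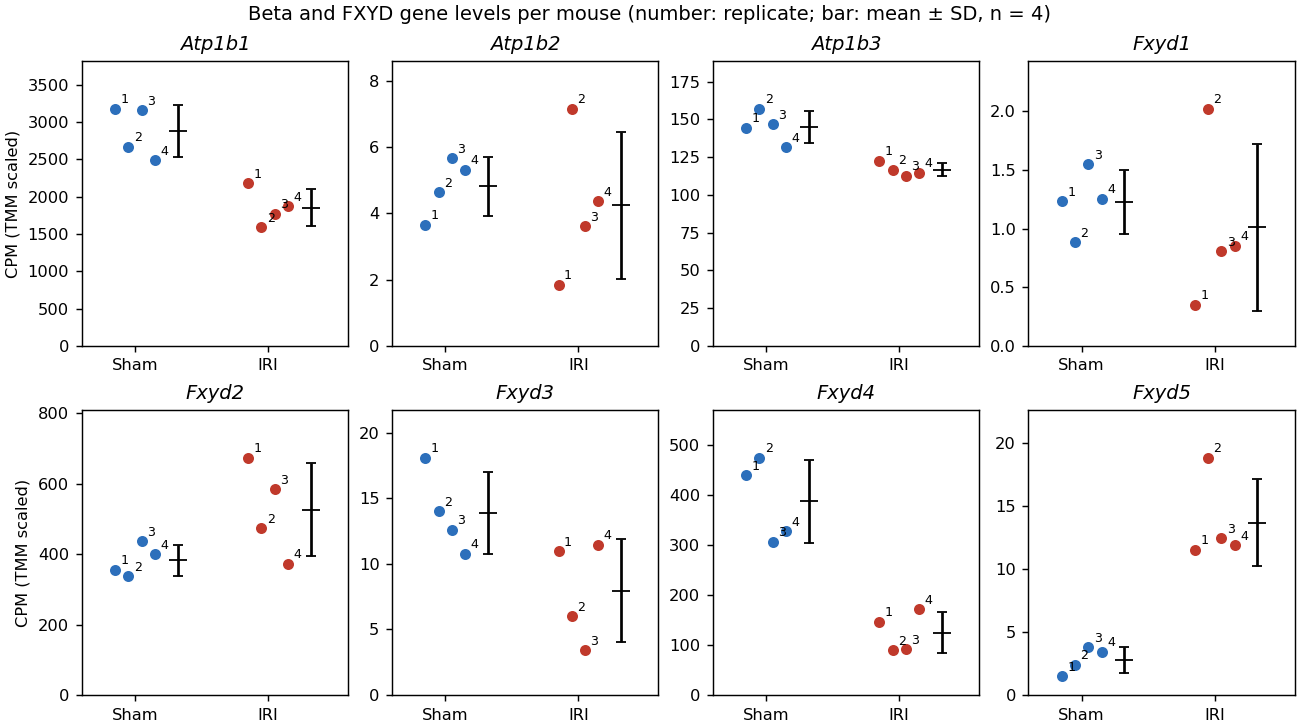
CPM scaled by TMM (vertical axis, from 0, a scale of its own in each panel) of the 8 genes in Sham (blue) and IRI (red), with 1 numbered point per mouse and the mean ± SD over 4 mice beside it. The groups are apart for Atp1b1, Atp1b3, Fxyd4 and Fxyd5, with Fxyd5 at 1.49 to 3.77 CPM in Sham and 11.5 to 18.85 CPM after IRI, and they overlap for the other 4 genes.

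Levels between genes were compared as CPM per kilobase of summed exons. In Sham, Atp1b1 was far above the rest at 934 ± 113 (SD, n = 4, as for all means below), followed by Fxyd4 at 197.9 ± 42.2, Fxyd2 at 95.5 ± 11.04 and Atp1b3 at 60.7 ± 4.401. The ranges of these 4 genes over the Sham mice did not overlap. The other 4 genes were near the floor of the set, with Fxyd3 at 2.86 ± 0.641, Atp1b2 at 1.180 ± 0.217, Fxyd5 at 0.662 ± 0.247 and Fxyd1 at 0.563 ± 0.125. Among these, the Fxyd5 range overlapped those of Atp1b2 and Fxyd1. After IRI the order of levels per kilobase was Atp1b1 (602 ± 79.8), Fxyd2 (131.6 ± 32.7), Fxyd4 (63.6 ± 20.9), Atp1b3 (48.8 ± 1.81), Fxyd5 (3.26 ± 0.827), Fxyd3 (1.64 ± 0.806), Atp1b2 (1.04 ± 0.542) and Fxyd1 (0.462 ± 0.326). Fxyd2 and Fxyd4 thus exchanged places, and Fxyd5 stood above Fxyd3 with no overlap, while Fxyd4 and Atp1b3 overlapped, as did Fxyd3, Atp1b2 and Fxyd1. The place of Fxyd2 in Sham depended on the length used. Per kilobase of the longest coding transcript (684 bases for Fxyd2, whose summed exons span 4005 bases), Fxyd2 was at 559 ± 64.7 and Fxyd4 at 323 ± 69.0 in Sham. By this length the ranges of Fxyd5 (3.842 to 6.287) and Fxyd3 (1.184 to 3.965) overlapped after IRI.

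Atp1b1 encodes the beta subunit that the kidney uses most, and in Sham it ranked 9 of all 24421 genes by CPM. It lies on chromosome 1 from 164437109 to 164458355 on the minus strand. Atp1b1 was at 3183, 2673, 3161 and 2493 CPM in Sham replicates 1 to 4, and at 2179, 1592, 1774 and 1873 CPM in IRI replicates 1 to 4. All 4 IRI mice were lower than all 4 Sham mice. The mean fell from 2878 ± 348 to 1854 ± 246 CPM, a 1.55-fold fall (edgeR log2 fold change -0.63 ± 0.13 SE, adjusted p = 0.00259). The call held in 17 of 17 refits of the test, with adjusted p from 8.3e-06 to 0.00985. Of its exon bases, 18.7% are shared with Nme7, a kinase-like gene of the opposite strand, and since no source used here gives the strand setting, reads from these bases cannot be assigned. Nme7 had 99 to 519 counts against 20437 to 99813 for Atp1b1, and it was lower as well (edgeR log2 fold change -0.78 ± 0.16 SE, adjusted p = 0.00253), a call lost with a covariate for the animal number series (edgeR adjusted p = 0.0126).

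Atp1b3 encodes a beta subunit found in many tissues, on chromosome 9 from 96332655 to 96364442. It was at 144, 157, 147 and 132 CPM in the Sham libraries and at 123, 117, 113 and 115 CPM in the IRI libraries. The groups did not overlap, and the spread was small in both. The mean fell 1.24-fold, from 145 ± 10.5 to 117 ± 4.33 CPM (edgeR log2 fold change -0.31 ± 0.07 SE, adjusted p = 0.00469). This call was near the threshold of 0.01. It was lost with a covariate for the animal number series (edgeR adjusted p = 0.0152), and without any 1 of IRI replicates 2, 3 and 4 and Sham replicates 1, 2 and 3 (0.0114 to 0.0149). It held without IRI replicate 1 or Sham replicate 4, and with any 1 library left out the log2 fold change stayed between -0.38 and -0.28 in all 8 cases.

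Atp1b2 encodes the beta subunit best known from glia, where it is also called adhesion molecule on glia. On chromosome 11 it spans 69599736 to 69605942. Its level was low, with 47 to 92 counts in the IRI mice and 98 to 179 in the Sham mice. In CPM it was at 3.66, 4.64, 5.67 and 5.32 in Sham and 1.84, 7.17, 3.61 and 4.36 after IRI. The IRI mice reached both below and above the Sham range. The difference was smaller than the spread between mice (edgeR log2 fold change -0.20, adjusted p = 0.633). The limma-voom estimate was -0.44 ± 0.34 SE, with a 95% interval of -1.21 to 0.34. Without IRI replicate 1 the log2 fold change was 0.05. The 4 glia and nerve markers had sums of 3.92 to 5.20 CPM in the Sham mice and 2.04 to 4.05 CPM in the IRI mice, and the part of such cells in the Atp1b2 level was not tested.

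Fxyd4, on chromosome 6 from 117933559 to 117937692 on the minus strand, had the largest fall of the 8 genes. It was at 440.1, 475, 307 and 328 CPM in Sham replicates 1 to 4. After IRI it was at 146, 89.0, 91.3 and 171 CPM. The highest IRI mouse was thus well below the lowest Sham mouse. The mean fell 3.11-fold, from 387 ± 82.7 to 124.5 ± 41.0 CPM (edgeR log2 fold change -1.64 ± 0.25 SE, adjusted p = 3.3e-04). The adjusted p stayed between 1.4e-10 and 0.00179 over the 17 refits, and leaving out 1 library at a time gave log2 fold changes from -1.83 to -1.50.

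Fxyd2, on chromosome 9 from 45399669 to 45410278 on the plus strand, was the other abundant FXYD gene, with 6090 to 17213 counts per library. It was at 356, 338, 437 and 399 CPM in the Sham libraries and at 674, 474, 585 and 373 CPM in the IRI libraries. IRI replicates 1, 2 and 3 lay above every Sham mouse, while IRI replicate 4 lay inside the Sham range. The mean was 383 ± 44.2 CPM in the Sham group and 527 ± 131 CPM in the IRI group (edgeR log2 fold change 0.46 ± 0.17 SE, adjusted p = 0.0443), which missed the threshold of 0.01 and passed one of 0.05, as did 63.6% of tested genes (31.8% higher and 31.7% lower). The 95% interval from limma-voom ran from 0.04 to 0.82. Which mice entered the fit changed the call. Without IRI replicate 4 the log2 fold change was 0.60 and passed 0.01 (edgeR adjusted p = 0.00656). When 1 of IRI replicates 1 and 3 and Sham replicates 1, 2 and 4 was left out, it missed 0.05 as well, at values from 0.32 to 0.47 (edgeR adjusted p from 0.0836 to 0.121), and it also did so with limma-voom (0.054) and without the filter on low counts (0.0556). IRI replicate 4 is the only IRI mouse of the high series, and with a covariate for the series the value was 0.32 (edgeR adjusted p = 0.242). Scaled by total counts it was 0.27 (edgeR adjusted p = 0.204).

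**Figure D2:**
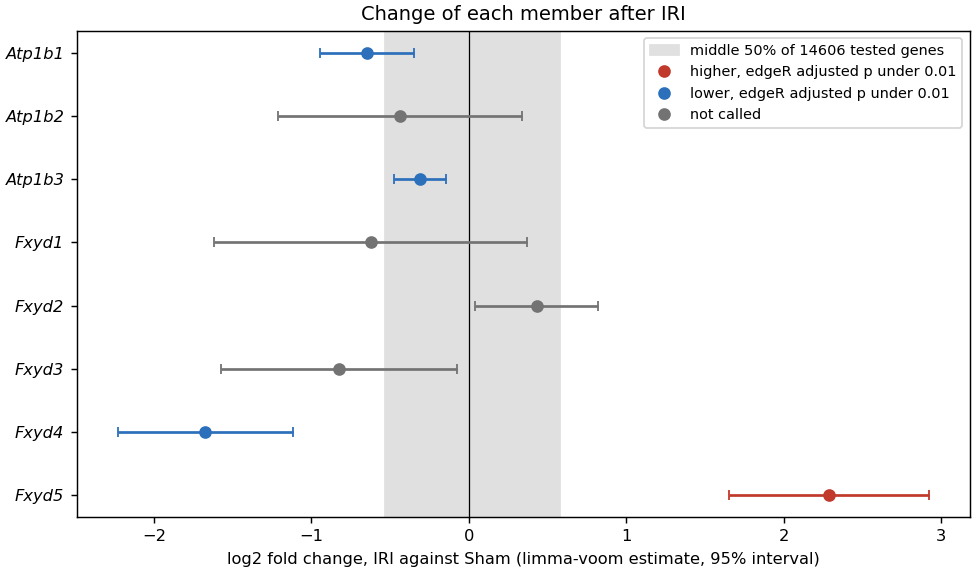
Log2 fold change of IRI against Sham (horizontal axis, limma-voom estimate with 95% interval, 4 mice per group) for the 8 genes, coloured by the edgeR call at an adjusted p of 0.01. The grey band holds the middle 50% of 14606 tested genes, from -0.53 to 0.58. The intervals of Fxyd4 and Fxyd5 lie outside the band on opposite sides, and those of Atp1b2 and Fxyd1 include 0.

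Fxyd5 encodes dysadherin, which binds the pump and is known for weakening adhesion between cells. It lies on chromosome 7 from 31032722 to 31042481 on the minus strand and was the 1 gene of the set that was higher. It was at 1.49, 2.41, 3.77 and 3.44 CPM in Sham, from 40 to 119 counts per library. After IRI it was at 11.5, 18.85, 12.5 and 11.9 CPM, from 200 to 294 counts. IRI replicate 2 was the highest and the other 3 IRI mice were close together, all above the Sham range. The mean rose 4.89-fold, from 2.78 ± 1.03 to 13.7 ± 3.47 CPM (edgeR log2 fold change 2.29 ± 0.28 SE, adjusted p = 1.3e-04). The adjusted p stayed between 3.1e-14 and 0.00108 over the refits, and without IRI replicate 2 or any other single library the log2 fold change stayed between 2.07 and 2.46. Even so, its level per kilobase of summed exons after IRI was below those of Atp1b1, Atp1b3, Fxyd2 and Fxyd4.

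Fxyd3, known for its levels in stomach, colon and some tumors, spans 31068172 to 31076704 on chromosome 7. Its level was 18.1, 14.0, 12.6 and 10.8 CPM in Sham and at 10.97, 5.997, 3.43 and 11.5 CPM after IRI. IRI replicates 1 and 4 reached the lower end of the Sham range, and IRI replicates 2 and 3 lay below it. The difference did not pass the test (edgeR log2 fold change -0.79 ± 0.33 SE, adjusted p = 0.0717, 95% interval from limma-voom -1.58 to -0.07). Of its exon bases, 42.5% are shared with Lgi4, a gene of the opposite strand with 9 to 41 counts per library. As for Atp1b1, reads from these bases cannot be assigned. The levels per kilobase and shares of Fxyd3 by summed exons use all 4850 exon bases, and whether reads from the shared bases were counted is not known. Lgi4 itself was not called (edgeR log2 fold change -0.61 ± 0.35 SE, adjusted p = 0.139).

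Fxyd1 encodes phospholemman, the pump regulator of heart and skeletal muscle, and spans 31051678 to 31057199 on chromosome 7. Its counts were the fewest of the set, 9 to 26 in the IRI mice and 25 to 49 in the Sham mice. The mean level was 1.23 ± 0.273 CPM in the Sham group and 1.01 ± 0.713 CPM in the IRI group, and the highest and the lowest value were both in IRI, at 2.03 CPM in replicate 2 and 0.353 CPM in replicate 1. No difference was detectable at this depth (edgeR log2 fold change -0.35, adjusted p = 0.521). The limma-voom estimate was -0.62 ± 0.44 SE, and its 95% interval, -1.62 to 0.37, leaves room for changes of some size. The log2 fold change was -0.90 without IRI replicate 2 (edgeR adjusted p = 0.063) and -0.04 without IRI replicate 1 (edgeR adjusted p = 0.937).

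The make-up of the FXYD genes was then compared within each library, which needs no scaling between libraries. There were 1.24, 1.40, 0.702 and 0.821 counts of Fxyd4 per count of Fxyd2 in Sham replicates 1 to 4, and 0.217, 0.188, 0.156 and 0.459 in IRI replicates 1 to 4. No IRI mouse reached the Sham range, and IRI replicate 4 was the nearest to Sham. The ratio of Fxyd4 to Fxyd2 was 4.30-fold lower after IRI (log2 difference -2.11, standard error 0.42, exact permutation test, two-sided, p = 0.0286, 0.0571 adjusted over 8 ratios). With 4 mice against 4, 0.0286 is the smallest p that this test can give. No adjusted value passed 0.05. Within the low series the difference was -2.74 and within the high series it was -1.02.

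As a share of the 5 FXYD genes by counts per summed exon length, Fxyd2 made up 32.7 ± 7.08% in Sham and 65.4 ± 10.6% after IRI, with ranges of 25.5 to 40.4% and 50.01 to 74.2%. Fxyd4 made up 65.96 ± 7.195% in Sham and 31.9 ± 10.4% after IRI. Fxyd5 went from 0.230 ± 0.105% to 1.69 ± 0.657%, and Fxyd1 and Fxyd3 stayed below 1.3% in every library. By the longest coding transcript, Fxyd2 already led in Sham, at 62.9 ± 7.48%, and reached 86.7 ± 5.78% after IRI. The direction was the same by either length, but the statement that Fxyd4 led in Sham held for summed exons only. Among the beta genes, Atp1b1 made up 93.7 ± 0.717% in Sham and 92.3 ± 0.873% after IRI, and Atp1b3 6.14 ± 0.704% and 7.56 ± 0.771%.

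**Figure D3:**
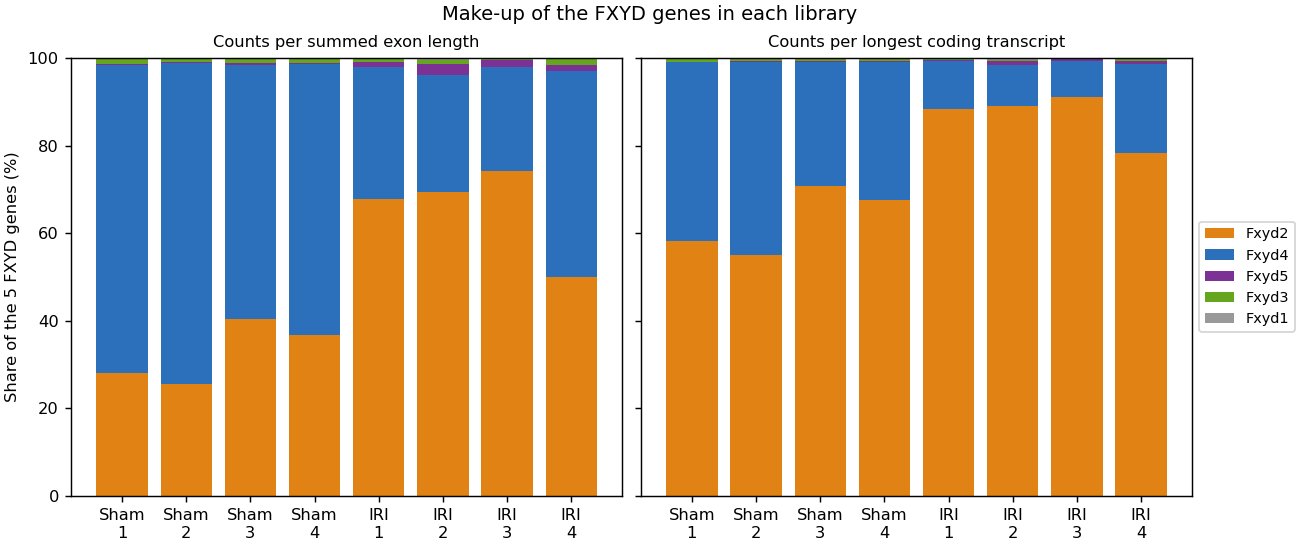
Share (%) of each of the 5 FXYD genes in each of the 8 libraries, 1 stacked bar per mouse, by counts per summed exon length (left) and per longest coding transcript (right). Fxyd2 (orange) takes 25.5 to 40.4% of the left bars in Sham and 50.01 to 74.2% after IRI, and Fxyd4 (blue) takes most of the rest.

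Set against Atp1b1 in the same library, Fxyd2 was 2.098-fold higher after IRI (log2 difference 1.07, standard error 0.20) and Fxyd4 2.05-fold lower (log2 difference -1.04, standard error 0.26), each with no overlap between the groups (exact permutation test, two-sided, p = 0.0286, adjusted p = 0.0571). Fxyd5 per Fxyd2 was 3.78-fold higher, by the same test and with the same p and adjusted p (log2 difference 1.92, standard error 0.37). Both beta ratios were overlapping. Atp1b3 per Atp1b1 differed by 0.32 on the log2 scale (standard error 0.12, exact permutation p = 0.0571, adjusted p = 0.0914) and Atp1b2 per Atp1b1 by 0.32 (standard error 0.53, exact permutation p = 0.6, adjusted p = 0.6). Fxyd3 and Fxyd1 per Fxyd2 differed by -1.36 and -0.93 (exact permutation p = 0.0857 and 0.229, adjusted p = 0.114 and 0.261), with within-series values of -2.25 and -0.05 for Fxyd3. The ratios share members and libraries, so they are not independent of each other.

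**Figure D4:**
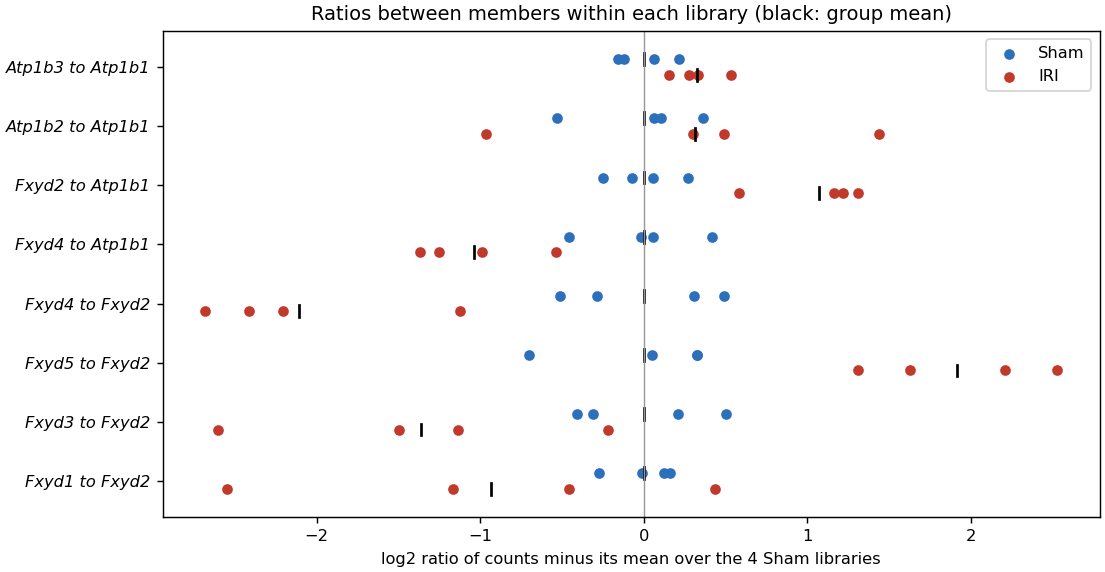
Log2 ratio of counts between pairs of members in each library, minus the Sham mean of that ratio (horizontal axis), with 1 point per mouse, Sham in blue and IRI in red, and black ticks for the group means. The groups are apart for Fxyd2 and Fxyd4 per Atp1b1 and for Fxyd4 and Fxyd5 per Fxyd2, and they overlap for the other 4 ratios.

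Markers of other cell types moved with several of these genes, and their part in the results was not tested. The 8 principal cell markers were all lower, their sum going from 11739 ± 1539 CPM in Sham to 2492 ± 810 CPM after IRI (range 1749 to 3534), and the 8 intercalated cell markers were all lower too, from 2613 ± 302 to 903 ± 201 CPM. Fxyd4 fell beside them, but by less than the principal cell sum. In Sham most of that sum was Aqp2, at 6071 to 8295 CPM, and Aqp2 was at 491 to 1385 CPM after IRI. Single markers lay on both sides of Fxyd4. Hsd11b2 and Scnn1g fell more, 8.68-fold and 5.58-fold, and Scnn1b fell less, 2.60-fold. The log2 ratio of Fxyd4 to that sum was -4.94 ± 0.170 in Sham and -4.33 ± 0.0905 after IRI. Both groups were tight in this ratio and did not overlap. For Atp1b1 the log2 ratio to the same sum was 1.65 higher after IRI.

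Of the 10 proximal tubule markers, 7 were higher and 0 lower after IRI by edgeR's test at 0.01 (9 higher and 0 lower at an unadjusted p of 0.05 and by DESeq2, 7 and 0 by limma-voom), and their sum was 19957, 12459, 20450 and 9749 CPM in IRI replicates 1 to 4 against 7523 to 9876 CPM in Sham. IRI replicate 4, the mouse with Fxyd2 inside the Sham range, also had its proximal tubule sum inside the Sham range. This holds for the sum and not for each marker. In that mouse Slc34a1, at 1803 CPM, was above its Sham range of 425.7 to 723.7 CPM. Slc27a2, at 542.2 CPM, was below its Sham range of 605.7 to 653.4 CPM. The log2 ratio of Fxyd2 to this sum was -4.86 ± 0.197 after IRI and -4.49 ± 0.285 in Sham, and these overlapped. The sum leans on Lrp2, the largest of these markers in every Sham library, at 2694 to 5231 CPM. Unlike Slc34a1, which was at 1803 to 3538 CPM after IRI, Lrp2 did not rise and was at 2102 to 3705 CPM. The overlap is therefore no result about the other markers, and Fxyd2 was not tested against them. The 5 thick ascending limb markers, 1 higher and 1 lower, had a sum of 1332 ± 330 CPM in the Sham group and 1303 ± 165 CPM in the IRI group. For the 4 distal convoluted tubule markers, 1 higher and 1 lower, it was 401 ± 137 and 480 ± 246 CPM. None of these marker genes was at 0.

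Fxyd5 was higher in libraries that also had more of several other markers. The 5 neutrophil markers, all higher, had sums of 2.19 to 4.66 CPM in the Sham mice and 46.2 to 126 CPM in the IRI mice, and none was at 0. The 8 endothelial markers, 4 of them higher, had a sum of 214 ± 34.8 CPM in the Sham group and 442 ± 127 CPM in the IRI group. For the 6 macrophage markers it was 29.7 ± 4.99 and 43.7 ± 10.8 CPM, and 0 of the 6 were called by edgeR's test at 0.01, against 4 higher at an unadjusted p of 0.05, 1 higher by DESeq2 and 0 by limma-voom. The 6 fibroblast and pericyte markers, 1 of them higher by edgeR at 0.01 (4 at an unadjusted p of 0.05 and 3 by DESeq2), ran from 212 to 1458 CPM after IRI, highest in replicate 2, and from 151 to 258 CPM in Sham. IRI replicate 2 was also the mouse with the highest Fxyd5, Fxyd1 and Atp1b2. The neutrophil sum was 26.6-fold higher, much more than Fxyd5, and the endothelial sum was 2.06-fold higher, less than Fxyd5.

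Fxyd3 followed the summed markers of the urothelium, the lining of the ureter and renal pelvis. The 5 markers summed to 199 to 319 CPM in Sham and to 215, 96.7, 69.6 and 209.6 CPM in IRI replicates 1 to 4, so the same 2 IRI mice were low in both. The log2 ratio of Fxyd3 to that sum was -4.20 ± 0.0464 in Sham and -4.21 ± 0.147 after IRI, a difference near 0. The markers did not move together, so this holds for the sum and not for each marker. Krt5 was at 65.2, 28.9, 20.9 and 75.3 CPM in IRI replicates 1 to 4, against 18.3 to 33.6 CPM in Sham. The uroplakin Upk3a was at 31.5, 17.5, 13.3 and 28.1 CPM in the same mice, against 50.1 to 84.0 CPM in Sham. Of these markers, 2 were lower and 0 higher by edgeR's test at 0.01, against 4 lower and 1 higher at an unadjusted p of 0.05, and 3 lower and 0 higher by DESeq2 and by limma-voom.

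**Figure D5:**
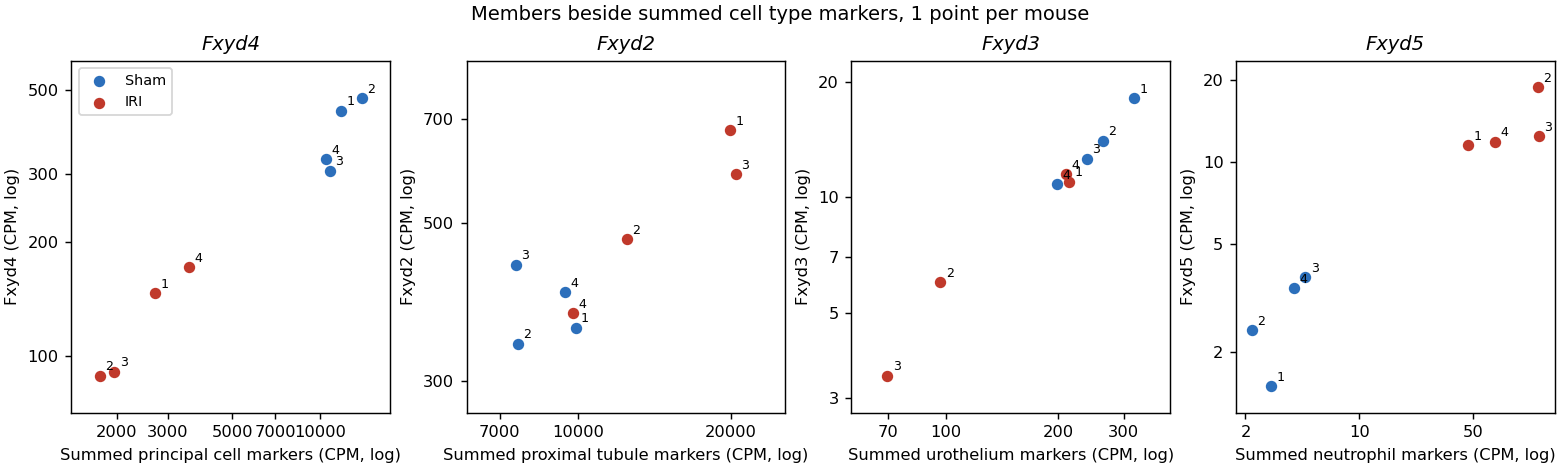
CPM of 4 FXYD genes (vertical axes, log scale) against the summed CPM of a marker list (horizontal axes, log scale) in the 8 libraries, 1 numbered point per mouse, Sham in blue and IRI in red. Fxyd4 is beside principal cell markers, Fxyd2 beside proximal tubule markers, Fxyd3 beside urothelium markers and Fxyd5 beside neutrophil markers. By these sums, IRI replicate 4 lies within the Sham ranges in the Fxyd2 panel, and IRI replicates 1 and 4 do in the Fxyd3 panel.

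The genes nearest to each member were named by the root mean square difference of log2 CPM profiles, centred on Sham, over the 8 libraries. For each member 9924 or 9925 genes of at least 10 CPM were searched, and a correlation given here is a description over 8 libraries that fall into 2 groups. Nearest to Fxyd4 were Tjp3, a tight junction scaffold (difference 0.15, Pearson's r = 0.988, log2 fold change -1.70), Slc35g1 and Kcnq1, a potassium channel subunit (log2 fold change -1.62). Nearest to Fxyd3 were Homer2 (0.15, r = 0.990), Psca, prostate stem cell antigen (0.16), and Ctse, the protease cathepsin E (0.20). None of these 3 passed the test at 0.01. Nearest to Fxyd2 were Fcgrt, the neonatal Fc receptor (0.09, r = 0.967), Slc16a13, a carrier of the monocarboxylate transporter family, and Acadl, an enzyme of fatty acid oxidation.

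Nearest to Fxyd5 were Rab31, a small GTPase of vesicle traffic (0.26, log2 fold change 2.31), Dusp8, a phosphatase of MAP kinases (0.29), and Gja1, the gap junction protein connexin 43 (0.30, log2 fold change 2.09). Nearest to Atp1b1 were Inpp5k, an inositol phosphatase (0.08, r = 0.983), Cdc26, a subunit of the anaphase-promoting complex, and Ivns1abp, and nearest to Atp1b3 were Jagn1, Abhd16a and Fam53a, all within 0.05. For the scarce genes Atp1b2 and Fxyd1 the list was led by genes of the extracellular matrix. Both had the collagen Col6a1 (0.20 and 0.28) and the proteoglycan Dcn among their 3 nearest, with Adamtsl2 for Atp1b2 and the complement gene C3 for Fxyd1. None of these 4 genes passed the test at 0.01.

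Genes that work with the pump were counted on 3 lists. The first holds genes of sodium entry and of the mineralocorticoid response, through which aldosterone acts on the same cells. Of its 16 tested genes, 2 were higher, 11 lower and 3 not called, where 24.6% of all tested genes were lower and 25.1% higher. The median log2 fold change was -1.02 against -0.01 over all genes. Hsd11b2, which protects the mineralocorticoid receptor from cortisol and corticosterone, fell 8.68-fold, from 1231 ± 167 to 142 ± 41.6 CPM (edgeR log2 fold change -3.12 ± 0.21 SE, adjusted p = 3.9e-06). Scnn1g, the gamma subunit of the epithelial sodium channel, fell 5.58-fold (edgeR log2 fold change -2.48, adjusted p = 1.3e-06), Klhl3, an adaptor for degradation of WNK kinases, 4.06-fold, and Nr3c2, the mineralocorticoid receptor, 3.51-fold. The 2 higher genes were Cul3, the ubiquitin ligase scaffold that Klhl3 works with (edgeR log2 fold change 0.47, adjusted p = 4.6e-04), and the kinase Oxsr1 (0.37, edgeR adjusted p = 6.5e-04), whose call was lost when scaled by total counts (adjusted p = 0.0289). Scnn1b, Scnn1g and Hsd11b2, all among the lower genes of this list, also stand among the principal cell markers above.

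The second list holds other ion pumps of the P-type family. Of 14 tested, 5 were higher, 5 lower and 4 not called, where 25.1% of all tested genes were higher and 24.6% lower. The median log2 fold change was -0.12 against -0.01 over all genes, and without the filter on low counts the median was 0.24. The largest rise was in Atp2c2, a calcium and manganese pump of the secretory pathway, from 0.999 ± 0.260 to 9.59 ± 4.17 CPM (edgeR log2 fold change 3.26, adjusted p = 5.1e-05). Atp13a3, a polyamine transporter, rose 2.41-fold, Atp2b1, a calcium pump of the plasma membrane, 2.08-fold, and Atp2a2, the calcium pump of the endoplasmic reticulum, 1.65-fold. In the opposite direction, Atp2b2, another plasma membrane calcium pump, fell 8.43-fold (edgeR log2 fold change -3.08, adjusted p = 1.3e-06), Atp13a2 of the lysosome 2.89-fold and Atp2c1 of the Golgi 1.64-fold. So the paired paralogs Atp2b1 and Atp2b2, and Atp2c2 and Atp2c1, had opposite signs.

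The third list holds kinases, interactors and the membrane scaffold of the pump. Of 14 tested, 3 were higher, 4 lower and 7 not called, a share called near the 49.7% of all tested genes. The median log2 fold change was 0.12, or -0.07 when scaled by total counts. Sik1, a salt-inducible kinase, rose from 80.8 ± 18.3 to 391 ± 29.6 CPM (edgeR log2 fold change 2.28 ± 0.16 SE, adjusted p = 5.3e-06). Add2, an adducin of the spectrin skeleton, and Nkain1, a protein that interacts with the pump's beta subunit, rose 11.3-fold and 3.14-fold from low levels of 0.872 and 4.27 CPM. Among the lower genes, Sptan1 (alpha spectrin) fell 3.24-fold, Sptbn1, a beta spectrin, 2.30-fold and Prkca, a protein kinase C, 2.01-fold (edgeR adjusted p = 8.0e-06). The Sptbn1 call (edgeR adjusted p = 0.00777) rested on groups that overlapped, and it was lost with limma-voom (0.0123) and without any 1 library except Sham replicate 3 (0.0137 to 0.022).

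RefSeq start sites were matched for 6 of the 8 genes in GRCm38.p6. The 250 bases upstream of the start are printed for the 2 genes with the largest changes, with matches to the searched motifs in capitals.
Fxyd4 (chr6:117937336-117937585, minus strand): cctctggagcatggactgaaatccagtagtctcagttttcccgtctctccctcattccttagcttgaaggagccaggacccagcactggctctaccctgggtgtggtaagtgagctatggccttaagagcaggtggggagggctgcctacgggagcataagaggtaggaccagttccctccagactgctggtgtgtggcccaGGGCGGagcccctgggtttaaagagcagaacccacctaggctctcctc
Fxyd5 (chr7:31042332-31042581, minus strand): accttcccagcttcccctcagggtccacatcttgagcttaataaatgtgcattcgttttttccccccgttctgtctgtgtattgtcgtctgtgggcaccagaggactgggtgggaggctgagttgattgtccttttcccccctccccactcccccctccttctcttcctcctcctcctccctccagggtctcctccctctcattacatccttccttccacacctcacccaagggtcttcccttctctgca
Motifs were sought on both strands, and no matches overlapped. Fxyd4 held 1 GC box (GGGCGG), which 32.7% of 32851 windows of the same length hold, and Fxyd5 held no match. Neither window held the TATA box TATAAA, which is in 12.4% of all windows. The AP-1 element (TGANTCA) is in 6.75% of all windows and was absent here. The same holds for the STAT element (TTCNNNGAA), in 7.02%, and the steroid receptor half-site (TGTTCT), in 16.1%. These are matches of letters in a window and say nothing of binding. The Fxyd4 window lies inside the GENCODE gene, whose annotated end is at 117937692, so other transcripts start upstream of it. The Fxyd5 window lies partly inside its GENCODE gene, from 31042332 to the annotated end at 31042481. The GC content was 58% for Fxyd4 and 55.6% for Fxyd5, with a median of 52.4% over all windows, and the windows of Atp1b1 and Atp1b3 were richer, at 70.4% for Atp1b1 and up to 76.8% for Atp1b3.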

How the data were processed

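Libraries were prepared from RiboTRAP RNA of 8 mice. The authors aligned reads to mm10 with TopHat2 2.1.1, counted them per gene symbol with HTSeq, and deposited raw counts without normalization. No source used here gives the annotation, the counting mode or the strand setting. Lines that name no gene (43.3% to 52.3% of counted lines after IRI, 33.3% to 37.7% in Sham) stayed out of library sizes and tests. Counts were scaled by TMM and filtered with filterByExpr (minimum count 10, minimum total 15), and IRI was compared with Sham by the quasi-likelihood test of edgeR 4.0.16 in R 4.3.3, adjusted by Benjamini-Hochberg over 14606 genes, at a threshold of 0.01. Standard errors and 95% intervals came from limma 3.58.1 with voom, and DESeq2 1.42.0, which the submitters' processing notes also name, was an alternative. The code was tested on simulated data. Per-mouse ratios (0.5 added to each count) were compared by exact permutation tests.

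Named genes were the 8 members, genes whose exons overlap them, up to 4 changed genes per direction of each list that averaged at least 5 CPM, and the 3 nearest profiles per member. The members and lists were chosen with earlier results of these data known. Other subunit genes, and some genes that this rule names, were part of all tests but are not reported. Alternatives were other scalings, filters, tools and lengths, a block for replicate number, a covariate for the animal number series and each library left out. The longest coding transcript was added as a length after seeing the data. Positions, lengths and coding sequences came from GENCODE M21, and promoter windows from RefSeq.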

Additional observations from a re-analysis of the deposited data

Results flagged for a closer look

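Of 16 groups of 4 mice examined (8 genes in IRI and in Sham), 1 held a value far from the other 3. In IRI replicate 2, Fxyd5 was at 18.85 CPM, while the other 3 IRI mice lay between 11.5 and 12.5 CPM, a gap past Dixon's 95% critical value. Chance alone marks about 1 in 20 such groups. Without this mouse Fxyd5 was still higher after IRI at the threshold of 0.01.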

How the results depend on the processing

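Over the 17 refits, Atp1b1, Fxyd4 and Fxyd5 kept their direction and their call, and Fxyd1 and Fxyd3 stayed without one at 0.01. The count of changed genes was 7262, and 5582 to 8346 in the refits. With total counts as the scale, 2784 genes were higher and 4912 lower (36.2% higher, against 50.5%), with the median gene at -0.20, and upper quartile factors put it at -0.13. The direction of every member was the same under both. No source used here says that the replicate numbers pair the mice. Same-number correlations were -0.07, -0.53, -0.36 and -0.37, and no mouse correlated best with its own number. These correlations were taken after centring on each group and cannot exclude pairing. With the replicate block 5582 genes changed, and of the members only the call of Atp1b3 was lost (log2 fold change -0.31). With a covariate for the animal number series Atp1b3 was at -0.32, without a call, and Adamtsl2 turned to 0.088. Fxyd2 (0.46) was called at a threshold of 0.05.

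Without 1 library at a time, log2 fold changes ran from -0.38 to -0.28 for Atp1b3, from -0.57 to 0.0542 for Atp1b2, from 0.32 to 0.60 for Fxyd2 and from -0.33 to 0.0585 for Adamtsl2. The log2 difference of Atp1b2 per Atp1b1 ran from -0.0589 to 0.74. Within the low series ratio differences were 0.50 (Atp1b3 per Atp1b1), 1.48 (Fxyd2 per Atp1b1), -2.74 (Fxyd4 per Fxyd2), 2.52 (Fxyd5 per Fxyd2) and -2.25 (Fxyd3 per Fxyd2). Within the high series they were 0.50 (Fxyd2 per Atp1b1), -0.52 (Fxyd4 per Atp1b1), -1.02 (Fxyd4 per Fxyd2) and -0.0515 (Fxyd3 per Fxyd2). Each series holds 1 mouse of 1 group, so these have no test. The share of Fxyd1 differed by -0.0216 percentage points per longest coding transcript, and without 1 library by -0.0395 to 0.1199. That of Fxyd3 differed by -0.2926 to 0.0109 without 1 library. The cause of these changes was not tested. The low counts of Fxyd1 and Atp1b2 limit what can be said of them.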
